A study of Mus musculus and Homo sapiens with 22 samples.

Results

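PROX1 is a homeobox transcription factor of hepatocytes, and CUT&RUN with an antibody to it, or to a FLAG tag on it, was used to map where it sits on chromatin. The peaks described here are those at 10 genes that direct or carry out adipocyte fate, a fate that embryonic fibroblasts can be induced to take and hepatocytes do not normally take. They comprised 5 regulators (Pparg, Ebf1, Ebf2, Prdm16 and Klf5) and 5 effectors (Fabp4, Adipoq, Lpl, Plin1 and Cidec), out of 21853 mouse protein-coding genes, with the human genes of the same names out of 19689. A peak was assigned to a gene when its summit, the base of highest signal, lay in the gene body or within 50 kb of it. By this rule 86 of 50159 liver peaks, 52 of 40531 peaks of mouse embryonic fibroblasts (MEFs) and 15 of 14369 Hep3B peaks were assigned.

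In adipogenesis, early B cell factors and KLF5 act ahead of PPARG, the nuclear receptor that is required for fat cells to form and that binds DNA together with RXR. PRDM16 steers precursors towards brown and beige fat. The effectors then take up, store and release lipid: LPL frees fatty acids from lipoproteins, FABP4 carries them in the cytosol, perilipin 1 and CIDEC coat and enlarge the lipid droplet, and adiponectin is secreted. Several of them are direct targets of PPARG in fat cells, and LPL and CIDEC are also known from fatty liver.

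The liver list came from nuclei of untreated wildtype C57BL/6J mice aged 2 to 3 months, profiled with a PROX1 antibody (5 samples, with 5 IgG samples), so the protein mapped was endogenous. The MEF list came from fibroblasts of wildtype C57BL/6N embryos (E13.5) that carried rtTA and tetO-FLAG-mmProx1 lentiviruses and received doxycycline at 2 µg/ml for 2 days (3 FLAG and 3 IgG samples). Hep3B, a human hepatocellular carcinoma line, carried pLIX-Puro-hsPROX1 after puromycin selection and received the same doxycycline treatment for 2 days (3 FLAG and 3 IgG samples). Tissue, substrain, age, antibody, lentivirus and doxycycline treatment, number of samples and endogenous against overexpressed protein changed together between liver and MEFs. Their parts in any difference therefore cannot be told apart. The authors deposited 1 consensus list per group with its replicates pooled. No spread between replicates could therefore be computed and no difference between lists was tested. Sequencing depth was unknown from these files, and the IgG libraries were not analysed here. Each peak is given by the −log10 p of its summit and by its rank percentile, the share of its own list at or below that value, because −log10 p was not on a common scale between lists (list medians of 12.2, 5.96 and 6.44). Marker genes were set beside the lists, but they were chosen with earlier results of these data known and are no independent check of the labels. All 6 hepatocyte marker genes examined (Alb, Ttr, Hnf4a, Apoa1, Cyp2e1 and Fgb) had a promoter peak (summit within 1 kb of a start) in liver and 0 of 6 in MEFs or Hep3B. All 6 fibroblast markers (Col1a1, Col1a2, Prrx1, Pdgfra, Thy1 and Dcn) had a promoter peak in MEFs, against 1 of 6 in liver and 1 of 6 in Hep3B. Over all protein-coding genes the shares were 26.7% (liver), 55.4% (MEFs) and 44.4% (Hep3B). Some marker peaks were weak or near the distance limit, such as the MEF peaks of Dcn (percentile 0.2) and Thy1 (11) and the liver peak of Fgb (997 bp).

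In liver 9 of the 10 genes had a peak in their window, all but Klf5. In MEFs all 10 had a peak, and in Hep3B 6 had a peak, with EBF1, EBF2, FABP4 and LPL at 0. Over all protein-coding genes the shares with a peak were 69.1% for the liver list, 81.2% for MEFs and 71.8% for Hep3B. Promoter peaks, with a summit within 1 kb of a protein-coding transcription start site (TSS) of the gene itself, were found at 3 genes in liver (Pparg, Ebf2 and Cidec), 6 in MEFs (Pparg, Ebf1, Ebf2, Prdm16, Klf5 and Lpl) and 2 in Hep3B (PPARG and KLF5). Over all protein-coding genes the shares were 26.7% (liver), 55.4% (MEFs) and 44.4% (Hep3B). The regulators and effectors stood apart in MEFs, where 5 of 5 regulators and 1 of 5 effectors had a promoter peak. Pparg was the only one of the 10 with a promoter peak in all 3 lists, a share that was not computed over all protein-coding genes.

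**Figure D1:**
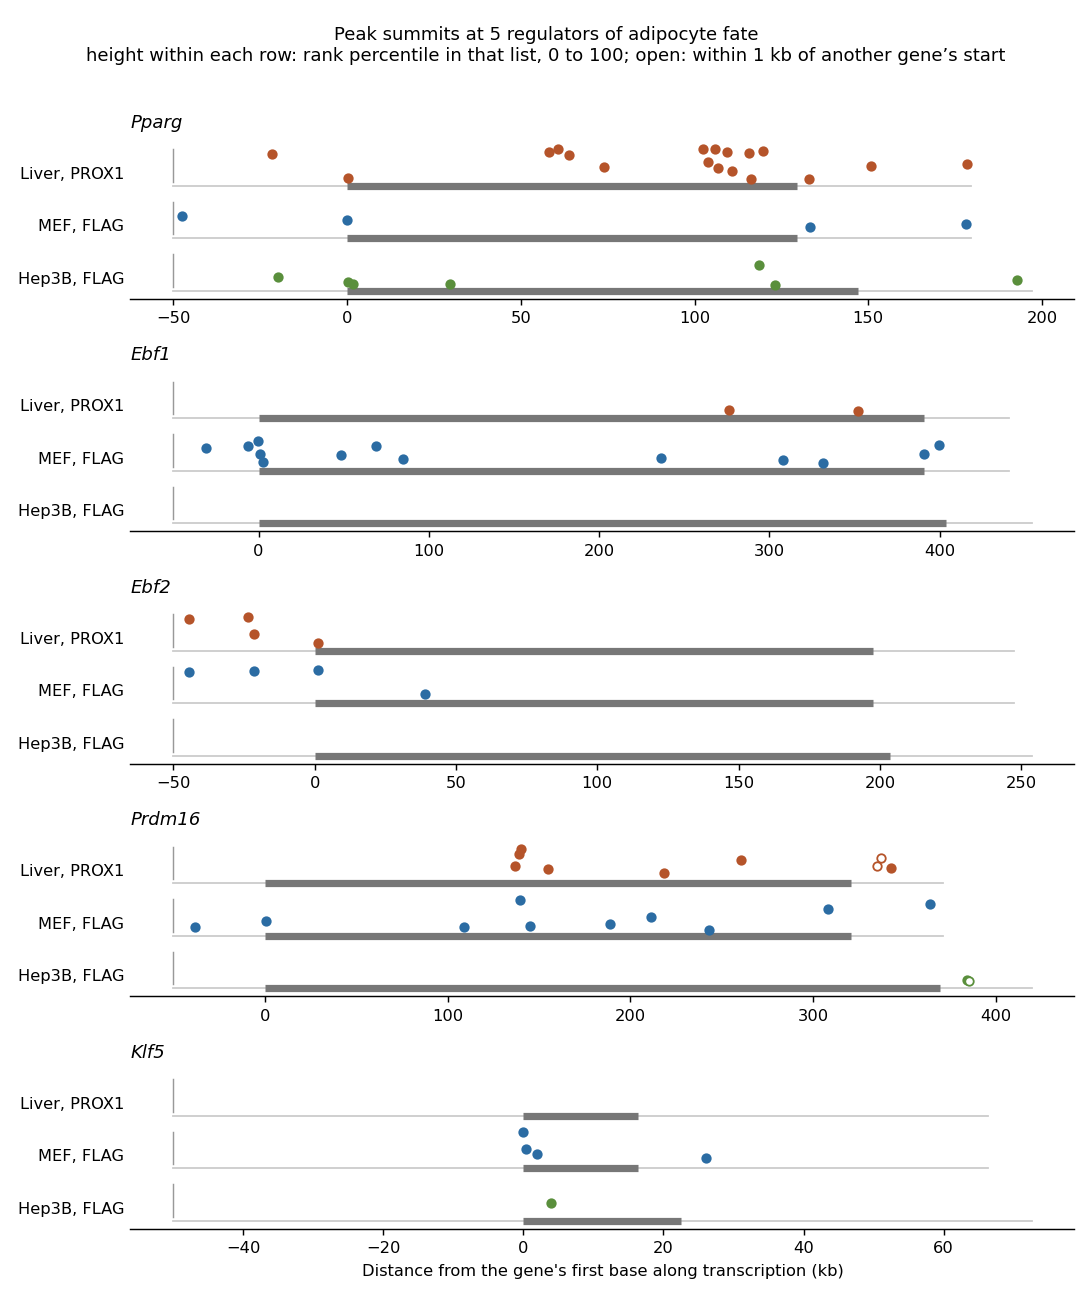
Summits at the 5 regulators in the liver, MEF and Hep3B lists. The x axis is the distance from the first base of the gene along transcription in kb (human gene for Hep3B), the thick bar is the gene body, and the height of a point within its row is its rank percentile from 0 to 100, with open points within 1 kb of the start of another gene. Liver points crowd at Pparg with 18 summits, MEF points spread along Ebf1 with 13, and the Hep3B rows of EBF1 and EBF2 are empty.

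Pparg, at chr6:115360951-115490399 on the plus strand (mm10), held 18 liver peaks, by count the most of the 10 genes, and 4 MEF peaks. Per 100 kb of window this was 7.84 summits in liver, above 83.9% of protein-coding genes, and 1.74 in MEFs, above 36.0%. Some of the liver peaks nearly abutted and were counted apart, so these liver figures depend on how peaks were divided. The liver densities of Cidec (15.3), Adipoq (10.8) and Lpl (8.66) were higher than that of Pparg. The gene has an upstream start, which gives the widely expressed shorter receptor, and an internal start 61.1 kb further on (Pparg-201, coding length 1515 bp against 1425 bp), which gives PPARG2, the form typical of fat cells. In liver the strongest peak of any of the 10 genes lay at the internal start, with its summit 375 bp upstream (−log10 p 23.6, rank 515 of 50159). Peaks 2.93 kb before and 2.67 kb after that start had −log10 p 18.5 and 16.3. The liver summit 130 bp into the upstream transcript was weak (9.07, percentile 11.9). In MEFs only the upstream start had a summit. It lay 36 bp before that start (5.74, percentile 43.5), its peak overlapped the weak liver peak, and no MEF summit lay inside the gene body. In Hep3B, PPARG (chr3:12287368-12434356, hg38) had 7 peaks, of which 2 lay at the upstream starts (−log10 p 5.31 and 5.08, percentiles 15.0 and 9.51). The Hep3B summit nearest to the internal start of PPARG-201 was 34.4 kb away. The upstream Pparg promoter thus had a summit in all 3 lists, and the internal promoter in liver alone.

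The sequences at both mouse Pparg promoters are shown because the lists differed between them. Capitals mark the 11 bases centred on the summit. The liver window (chr6:115421631-115421751, mm10, plus strand) had 29.8% G and C, while the MEF window at the upstream start (chr6:115360855-115360950, ending at the base before the TSS) had 83.3%.
Pparg internal promoter, liver summit: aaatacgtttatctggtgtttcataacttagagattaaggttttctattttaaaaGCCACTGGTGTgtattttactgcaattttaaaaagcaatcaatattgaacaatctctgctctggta
Pparg upstream promoter, MEF summit: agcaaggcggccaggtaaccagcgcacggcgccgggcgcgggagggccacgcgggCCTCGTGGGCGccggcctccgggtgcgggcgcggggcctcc

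The rest of the liver signal at Pparg lay towards the end of the gene. A run of 9 liver summits, with gaps of at most 5 kb, covered an 18.8 kb stretch from coding exon 5 through introns 5 and 6 of Pparg-201 (chr6:115462257-115481031), and 5 of the 9 were in the top 25% of the list. Its peak at the intron 5 summit printed here had −log10 p 23.6 (rank 516) and 6 other liver summits within 10 kb, a crowding reached by 13.1% of liver peaks. Some peaks of the run nearly abutted: the exon 5 peak ended at 115464005 and the next began at 115464027. The intron 5 peak printed here ended at 115467417 and the next began at 115467434. In intron 6 a peak ended at 115477096 and the next began at 115477115. The run and crowding figures count such peaks apart, and whether they are parts of broader signal was not tested. The Hep3B list also had peaks in this part of the human gene. Its strongest PPARG summit (−log10 p 7.02, percentile 66.4) and a liver summit (22.8, rank 718) both fell in coding exon 5 of 7, at coding base 718 in human and 775 in mouse, 57 bases apart in an exon of 200 bp whose bases were 96.0% identical between the species. A further Hep3B summit lay in intron 5 (4.78, percentile 3.65). The MEF list had no peak there. Below, the intron 5 window (chr6:115466641-115466761) has its summit in capitals, and the exon 5 stretch (chr6:115463164-115463261, mm10, plus strand) has in capitals the 7 bases that differ from the human exon. The human summit aligned to base 21 of this stretch and the liver summit was base 78.
Pparg intron 5, liver summit: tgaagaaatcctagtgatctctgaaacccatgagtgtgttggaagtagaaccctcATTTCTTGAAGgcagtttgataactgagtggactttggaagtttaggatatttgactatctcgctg
Pparg exon 5, mouse: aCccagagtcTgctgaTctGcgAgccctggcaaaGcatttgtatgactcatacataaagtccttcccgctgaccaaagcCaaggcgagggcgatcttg

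**Figure D2:**
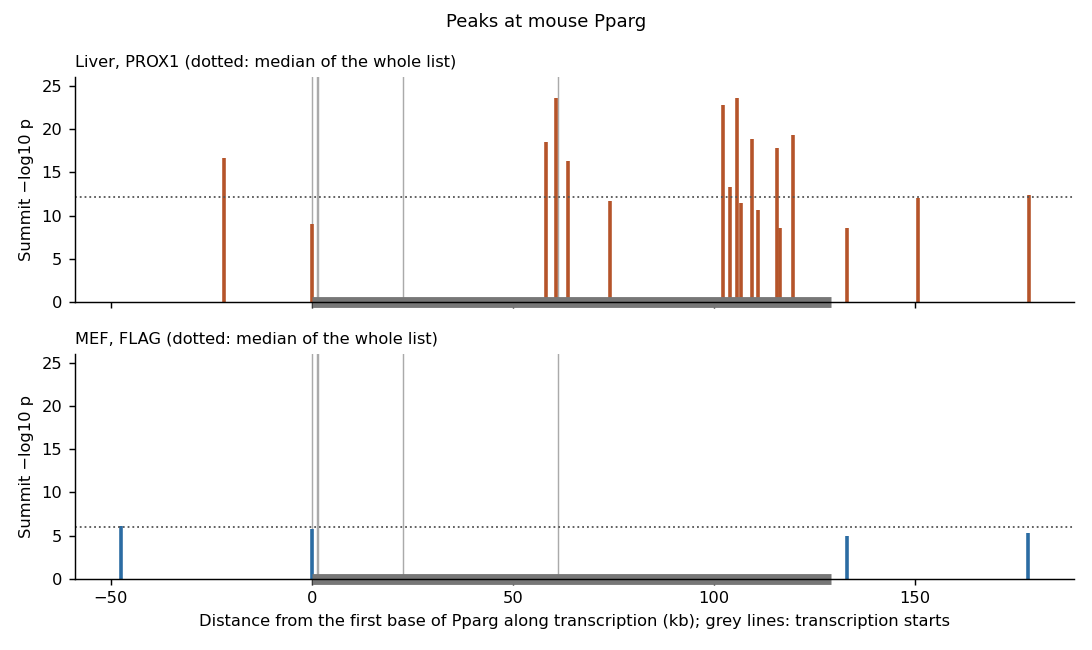
Summit −log10 p of every liver (top) and MEF (bottom) peak at mouse Pparg against distance from its first base in kb. The bar is the gene body, thin grey lines are annotated transcription starts, and the dotted line is the median of each whole list (12.2 and 5.96). Liver lines stand near the internal start and in the 18.8 kb stretch near the end of the gene, and the MEF lines stand at the upstream start and outside the gene.

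Downstream of Pparg 2 further liver peaks overlapped MEF peaks. The summits 72 kb from the internal start were 127 bp apart, with −log10 p 8.54 in liver and 4.96 in MEFs (percentiles 6.83 and 21.8). The pair farther downstream ranked higher, with −log10 p 12.4 in liver and 5.34 in MEFs (percentiles 52.8 and 32.6).

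Ebf1, at chr11:44617317-45008091 (mm10, plus strand), gave the reverse of Pparg. In MEFs it had 13 peaks, with the strongest at the promoter 115 bp before the start (−log10 p 7.34, percentile 79.7), further summits 1.01 kb and 2.6 kb into the gene, and the rest up to 400 kb from the start. In liver it had 2 weak intronic peaks (9.13 and 8.87, percentiles 12.5 and 9.83) and none within 130 kb of the start. As Ebf1 is 391 kb long, its 13 MEF summits came to 2.65 per 100 kb, close to the MEF median over genes of 2.73, while its 2 liver summits came to 0.408 per 100 kb against a liver median of 1.85. The human gene had 0 peaks in Hep3B, with the nearest summit 163 kb from a start.

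Ebf2, which primes precursors for brown fat, had overlapping peaks in both mouse lists. At chr14:67233292-67430918 (mm10, plus strand) each list had 4 peaks, and 3 of the 4 overlapped, while Pparg had 3 overlapping peaks among its 18 liver and 4 MEF peaks. The promoter summits were 24 bp apart (144 bp in liver and 120 bp in MEFs before a later annotated start, and so inside the gene body). Counted from the first start, the summits 21 kb upstream were 52 bp apart and those 44.5 kb upstream 122 bp apart. The ranks of the overlapping peaks differed. In MEFs all 3 were in the top 25% (percentiles 89.2, 87.4 and 81.8 from the promoter outwards), whereas in liver the promoter was weak (percentile 10.8), the 21 kb site intermediate (38.0) and the 44.5 kb site strong (84.7). The strongest liver peak at Ebf2, 23.4 kb upstream (−log10 p 18.2, percentile 90.2), overlapped no MEF peak. EBF2 had 0 peaks in Hep3B. The 21 kb site is shown because both lists had a summit there: in chr14:67211894-67212026 (mm10, plus strand) the MEF summit is base 41, and the capitals mark a match to the PROX1 consensus with 2 mismatches.
Ebf2 upstream site, both lists: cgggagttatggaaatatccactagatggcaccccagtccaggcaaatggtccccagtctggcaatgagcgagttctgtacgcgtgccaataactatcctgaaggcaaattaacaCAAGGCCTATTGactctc

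Prdm16, at chr4:154316125-154636873 on the minus strand (mm10), had 9 liver and 10 MEF peaks, and its strongest peaks in both lists lay within the same few kb deep in the gene. The MEF peak 140 kb from the start was the second strongest of all MEF peaks at the 10 genes (−log10 p 9.28, rank 1127 of 40531). In liver, 3 summits lay within a 3.74 kb stretch there, led by −log10 p 18.4 (percentile 90.9) and 15.4 (percentile 77.0), and the latter overlapped the MEF peak by 467 bp with summits 797 bp apart. Only MEFs had a summit at the Prdm16 promoter itself (622 bp, 5.37, percentile 33.3). Of the other liver peaks, 2 lay at the promoter of the neighbouring gene Arhgef16, and both Hep3B peaks of PRDM16 lay near the start of ARHGEF16 too, 1311 bp and 152 bp from it (5.21 and 5.08). The intronic MEF summit is shown as the highest-ranked MEF summit in a gene body among the 10 genes. In chr4:154497102-154497222 (mm10, plus strand) the summit is base 61, and capitals mark a GC box (GGGCGG, here on the other strand) and AGGTCA, the element bound by many nuclear receptors.
Prdm16 intron, MEF summit: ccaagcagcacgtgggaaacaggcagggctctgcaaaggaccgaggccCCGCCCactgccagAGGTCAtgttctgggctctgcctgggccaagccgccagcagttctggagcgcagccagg

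Klf5, a zinc finger factor that acts early in adipogenesis, was the one gene with 0 liver peaks, and the nearest liver summit was 170 kb from its start. In MEFs its promoter held the strongest peak of all 10 genes in that list (−log10 p 9.34, rank 1059), 134 bp before the start of Klf5 (chr14:99298691-99315036, mm10, plus strand), with a weaker summit 95 bp from a start (5.84, percentile 46.2) and others 1.41 kb into the gene and 25.6 kb from the start. In Hep3B the sole KLF5 peak (chr13, hg38) was also a promoter peak, 146 bp before a start (6.16, percentile 40.9). In an ungapped alignment of the bases up to the summits, the mouse and human summits fell at the same position. The summit base itself and the base before it differed between the species. Over the 61 bases that end at each summit, 54 (88.5%) were identical with no gap. No other ungapped position within 200 bp of the human summit gave more than 28 identical bases, and the 60 bases after the summit were 36.7% identical. Both stretches (chr14:99298497-99298557, mm10, and chr13:73058799-73058859, hg38, plus strands) end at their summit, and capitals mark the bases that differ.
Klf5, mouse, MEF list: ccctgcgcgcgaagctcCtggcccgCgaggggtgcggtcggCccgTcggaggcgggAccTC
KLF5, human, Hep3B list: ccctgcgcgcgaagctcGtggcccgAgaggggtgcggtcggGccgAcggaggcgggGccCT

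**Figure D3:**
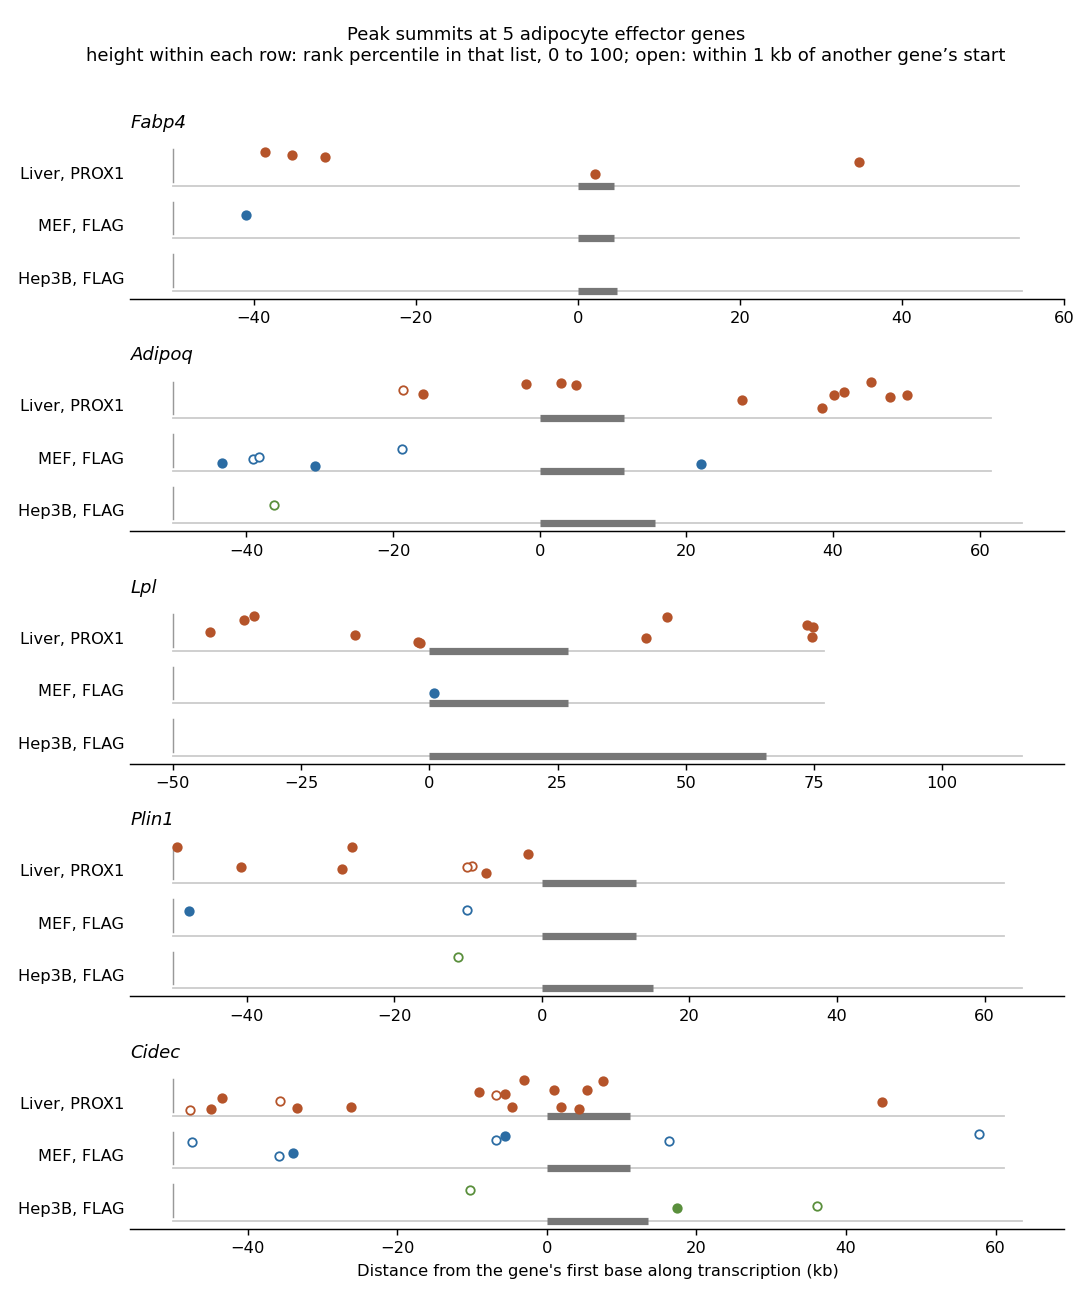
Summits at the 5 effectors, drawn as for the regulators (x axis in kb from the first base of the gene, height by rank percentile, open points within 1 kb of the start of another gene). Liver rows hold 53 summits, MEF rows 17 and Hep3B rows 5, and most MEF and Hep3B points are open.

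At the effectors the balance between the mouse lists was uniform in the whole lists. All 5 had more liver than MEF peaks, 53 against 17 in total, while of the regulators 1 had more in liver (Pparg), 3 more in MEFs (Ebf1, Prdm16 and Klf5) and Ebf2 the same number. Over all protein-coding genes 34.5% had more liver than MEF peaks. With both lists reduced to their 14369 strongest peaks, Cidec turned round to 2 liver and 5 MEF peaks, and the other 4 effectors kept their order. The lowest summit −log10 q was 4.03 in the liver list and 1.16 in the MEF list. The lists had also been deposited with different area floors. With an area of at least 500 in both, an alternative added after seeing the data, Prdm16 turned round to 9 liver and 3 MEF peaks and Ebf2 had 4 and 3, so that 3 of 5 regulators had more in liver and 2 (Ebf1 and Klf5) more in MEFs. All 5 effectors had more in liver under that floor. These genes share windows with close neighbours, and only 21 of the 53 liver peaks (39.6%), 2 of the 17 MEF peaks (11.8%) and 1 of the 5 Hep3B peaks had the effector as the gene with the nearest protein-coding TSS. In MEFs 9 of the 17 peaks and in Hep3B 4 of the 5 lay within 1 kb of the start of another gene. Counted with own promoters, 58.8% of the MEF effector peaks were at a TSS (95% Wilson interval 36.0 to 78.4, counting error only), beside 32.0% of all MEF peaks. For Hep3B it was 4 of 5 beside 58.2% of the list, and for liver 15.1% beside 14.5%.

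The neighbour promoters recurred. The start of Rfc4, a replication factor gene beside Adipoq, that of Pex11a, a peroxisome gene beside Plin1, and that of Jagn1 beside Cidec each had a summit within 200 bp in all 3 lists. The Hep3B summits at PEX11A (7 bp from its start, −log10 p 7.94, percentile 84.1) and JAGN1 (37 bp, 7.76, percentile 81.4) were the strongest Hep3B peaks in the windows of the 10 genes, and the RFC4 summit (68 bp, 6.21, percentile 42.5) was the only one near ADIPOQ.

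Liver peaks close to the effectors themselves were of another kind, lying mostly a few kb from the start. At Adipoq (chr16:23146536-23158028, mm10, plus strand), which encodes adiponectin, 3 liver summits of the top 25% surrounded the start, 1.9 kb before it (−log10 p 19.1, percentile 93.0), and 2.76 kb and 4.91 kb after it (20.2 and 17.5, percentiles 95.3 and 87.9). A run of 6 liver summits followed 38.4 kb to 49.9 kb from the start, led by −log10 p 21.2 (percentile 97.0), in the stretch towards St6gal1. The 6 MEF peaks in the Adipoq window were all below −log10 p 6.2, and none was within 18 kb of the start.

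At Plin1 (chr7:79720218-79732903, mm10, minus strand) liver had a summit 1.87 kb upstream (−log10 p 15.6, percentile 78.4). Its strongest peaks lay in the body of Wdr93, 25.7 kb and 49.4 kb upstream (22.6 and 21.6, ranks 787 and 1306), and were the fourth and the fifth strongest liver peaks at the 10 genes. At Cidec (chr6:113424634-113435760, mm10, minus strand) liver had 17 peaks, or 15.3 per 100 kb, above 97.2% of protein-coding genes. Promoter summits lay 88 bp and 732 bp from a start (−log10 p 13.9 and 9.31), while the stronger peaks lay 3.11 kb upstream (21.5, percentile 97.3) and in coding exon 5 of 6 (19.5, percentile 93.9). The strongest MEF peak in the Cidec window (8.36, percentile 92.2) was at the start of Tada3, 56.7 kb from that of Cidec. A peak 5.6 kb upstream of Cidec was shared, with liver and MEF summits 27 bp apart (12.5 and 7.8). Windows of 121 bp around the liver summits nearest the start of Adipoq, at the stronger upstream site of Plin1 and upstream of Cidec are shown as high-ranking liver sites of these genes (chr16:23144577-23144697, chr7:79758572-79758692 and chr6:113438805-113438925, mm10, plus strand). Capitals mark the 11 bases centred on the summit for Adipoq and Plin1, and for Cidec a C/EBP motif (TTGCNNAA, here on the other strand).
Adipoq upstream, liver summit: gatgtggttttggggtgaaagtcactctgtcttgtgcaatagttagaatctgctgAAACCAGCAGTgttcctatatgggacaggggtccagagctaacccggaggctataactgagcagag
Plin1 far upstream, liver summit: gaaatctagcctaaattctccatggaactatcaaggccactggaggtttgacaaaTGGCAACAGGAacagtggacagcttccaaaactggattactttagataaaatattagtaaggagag
Cidec upstream, liver summit: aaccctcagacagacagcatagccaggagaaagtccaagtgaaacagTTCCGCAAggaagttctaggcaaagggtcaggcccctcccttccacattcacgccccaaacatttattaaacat

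The window of Fabp4, which lies in a cluster of fatty acid binding protein genes, held 5 liver peaks and 1 MEF peak. The liver peak inside the gene, 2.05 kb from the start, was modest (−log10 p 10.1, percentile 23.9), and a run of 3 peaks of the top 25% (15.2, 16.2 and 18.0) lay 31.2 kb to 38.7 kb upstream, nearer to Fabp12. The MEF peak (6.3, percentile 58.3) was 41 kb upstream. Lpl had 11 liver peaks, none in the gene body. A pair of weak summits stood 1.92 kb and 2.16 kb before the start (9.07 and 9.32, percentiles 11.9 and 14.5), and the strong ones 34.3 kb upstream (18.9, percentile 92.5) and 46.3 kb from the start on the other side (18.0, percentile 89.5). The single MEF peak at Lpl was a weak promoter peak 924 bp into the gene (4.86, percentile 19.0). Neither FABP4 nor LPL had a peak in Hep3B, with the nearest summits 158 kb and 83.5 kb from their starts.

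**Figure D4:**
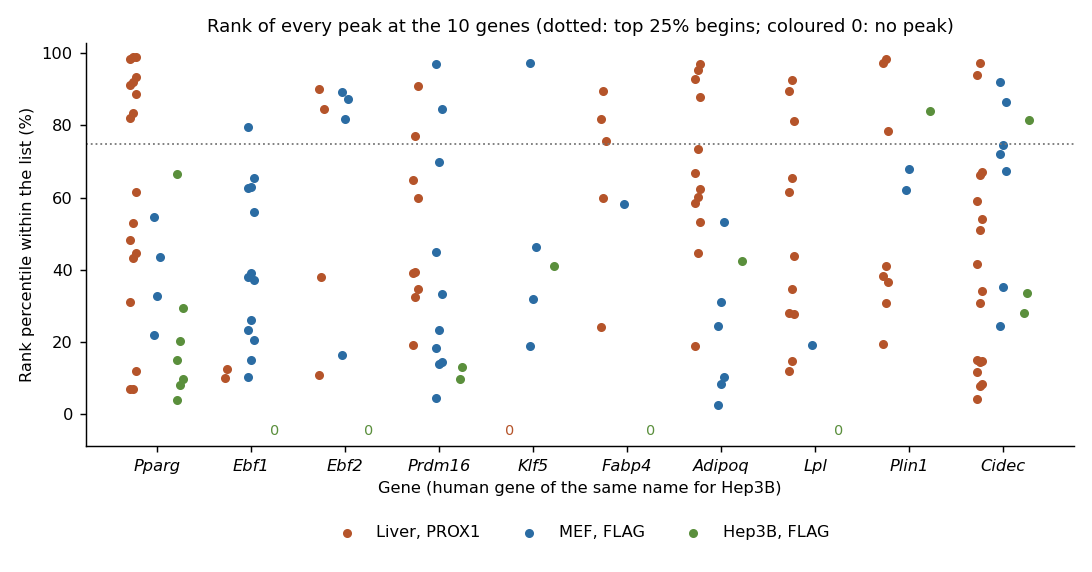
Rank percentile of every peak at the 10 genes within its own list, by gene and list; the dotted line at 75 is where the top 25% begins and a coloured 0 marks a gene with no peak. Liver points reach 99.0 at Pparg, MEF points reach 97.4 at Klf5, and Hep3B points stay at or below 84.1.

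Each peak was also placed within its own list by rank. In liver 28 of 86 (32.6%, interval 23.6 to 43.0) were in the top 25%, with a median percentile of 53.5. In MEFs 9 of 52 (17.3%, interval 9.38 to 29.7) were, with a median of 38.3. In Hep3B 2 of 15 were (interval 3.74 to 37.9), both at neighbour promoters, with a median of 27.8. All 3 intervals included the 25% that a whole list has by construction. The intervals carry counting error only and take peaks as independent, whereas many of these peaks lay in runs at the same gene. They are therefore no test against the list. The liver list overlapped the MEF list at 15 of the 86 peaks (17.4%), beside 18.9% of all liver peaks, and conversely 15 of the 52 MEF peaks did so with the liver list (28.8%, interval 18.3 to 42.3), beside 21.4% of all MEF peaks. Away from promoters these were 8 of 73 liver peaks (11.0%, list 10.7%) and 8 of 36 MEF peaks (22.2%, list 14.7%). For the 10 genes as a group, the intervals of the overlap shares over all peaks included the shares of the lists, again with counting error only.

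Short sequence motifs were counted in the 300 bp around each summit, on both strands, as a description. In liver AGGTCA was found in 30.2% of the peaks and 31.9% of the list, the C/EBP motif in 22.1% and 21.4%, and a direct repeat of AGGTCA with 1 base between and up to 2 mismatches (DR1, the element of PPAR with RXR and of HNF4A) in 9 of 86 peaks and 11.8%. AGGTCA also counts inside DR1 matches. The core of the HNF6 motif (ATCGAT) was found in 5 of 86 liver peaks (5.81%) and 2.49% of the list, and the EBF palindrome in 1 of 86 and 0.652%. In MEFs that palindrome was found in 2 of 52 peaks and 1.24% of the list, and in Hep3B in 2 of 15 and 1.25%. In each list 1 of these peaks was at the start of Pex11a (PEX11A), the neighbour of Plin1. The others lay upstream of Prdm16 in MEFs and downstream of PRDM16 in Hep3B. The PROX1 consensus with up to 2 mismatches was found in 6 of 86 liver peaks (6.98%) and 6.17% of that list. In Hep3B it was found in 1 of 15 peaks and 5.01% of the list. In MEFs it was found in 7 of 52 peaks and 4.97% of the list. These 7 were at Ebf1, Ebf2 (2 peaks), Prdm16 (2 peaks), downstream of Pparg and at the start of Jagn1. The C/EBP motif was found in 23.1% of the MEF peaks and 11.1% of the list, and in 4 of 15 Hep3B peaks and 11.4%. AGGTCA was found in 21.2% of the MEF peaks and 16.4% of the list, and in 3 of 15 Hep3B peaks and 14%. In Hep3B the GC box was the common motif, in 8 of 15 peaks and 53.6% of the list.

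A wider list of 48 genes of adipocyte biology placed these results. The 12 adipogenic transcription factors had promoter peaks at 9 genes in liver, 12 in MEFs and 9 in Hep3B, and the 8 enzymes of fat synthesis at 7, 8 and 4. Over all protein-coding genes the shares with a promoter peak were 26.7% (liver), 55.4% (MEFs) and 44.4% (Hep3B). Of 8 brakes on adipogenesis, 2 (25%) had a promoter peak in liver (Nr2f2 and Ddit3), 7 (87.5%) in MEFs and 5 (62.5%) in Hep3B. All 8 brakes had more MEF than liver peaks in their windows, beside 44.2% of all protein-coding genes. For Nr2f2 and Ddit3 the counts were close, with 7 MEF and 6 liver peaks each. The adipogenic factors went the other way, with 9 having more in liver and 2 more in MEFs, as did the fat synthesis enzymes (7 and 1). Over the 48 genes these numbered 24 and 22, and 34.5% of all protein-coding genes had more in liver. Equal numbers of peaks and a common area floor were not tried for the 48 genes. Of 3 secreted products (Lep, Retn and Cfd), none had a promoter peak in liver or MEFs and 1 (CFD) had one in Hep3B. In all, 26 of the 48 had a promoter peak in liver, 40 in MEFs and 27 in Hep3B, and 25 had one in both mouse lists, beside 22.3% of all protein-coding genes, whereas of the 10 genes only Pparg and Ebf2 did. Many of the 48 are also active in liver or in cells in general, and what part general expression plays was not tested.

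The 3 strongest promoter peaks among the 48 in liver were those of Acsl1, which activates fatty acids (−log10 p 23.4, percentile 98.9), Klf15 (20.1, percentile 95.2) and Agpat2, an enzyme of triglyceride synthesis (19.8, percentile 94.6). In MEFs they were those of Srebf1, the regulator of fatty acid synthesis (10.4, percentile 99.5), Acsl1 (9.74, percentile 98.5) and Ddit3 (9.17, percentile 96.8). In Hep3B they were those of SLC27A1, a fatty acid transporter (8.88, percentile 97.3), CEBPA (8.7, percentile 95.2) and BSCL2, which encodes seipin (8.61, percentile 93.2). A promoter peak in all 3 lists was found at 16 genes. The transcription factors among them were Cebpa, Cebpd, Srebf1, Nr1h3, Klf15, Ppargc1a and Nr3c1. The others were the brakes Nr2f2 and Ddit3, the lipid enzymes Acaca, Scd1 and Dgat1, the lipid droplet genes Plin2, Plin4 and Pnpla2, and the insulin receptor gene Insr. Some of these peaks ranked low, such as those of CEBPD in Hep3B (percentile 2.1) and of Srebf1 (4.62) and Plin4 (7.73) in liver. The share of all protein-coding genes with a promoter peak in all 3 lists was not computed.

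**Figure D5:**
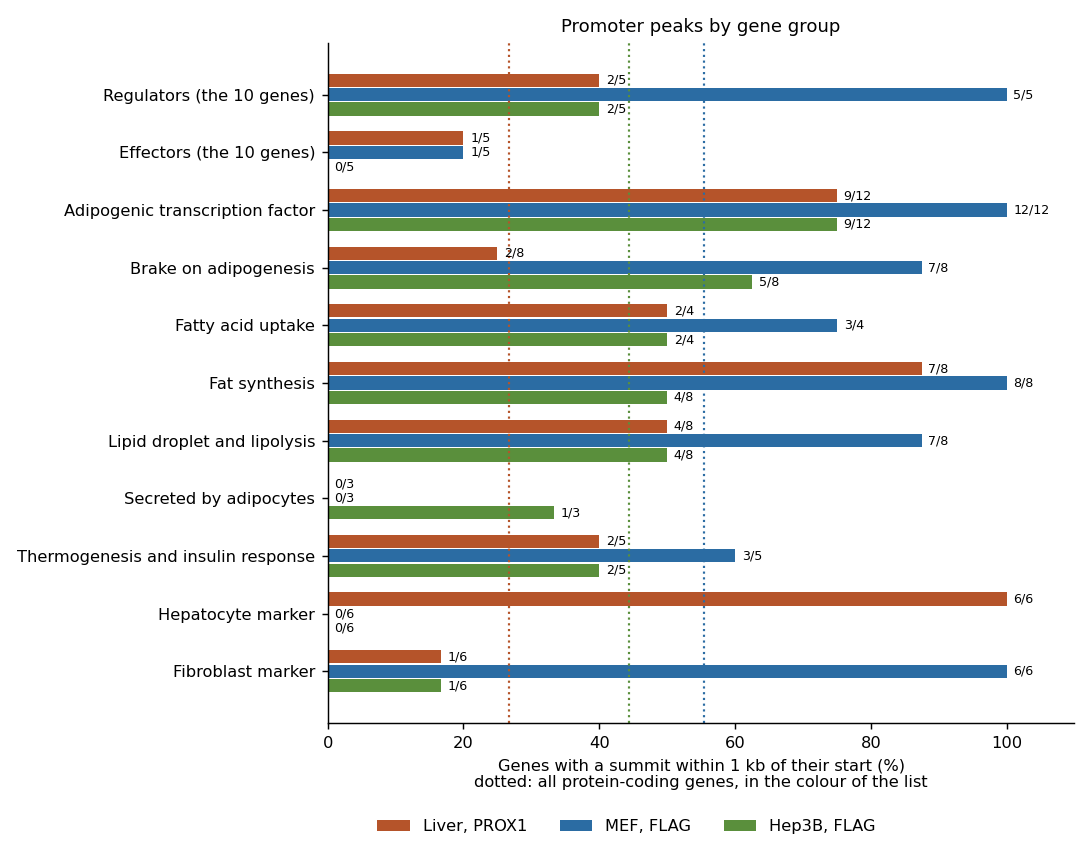
Percentage of genes in each group with a summit within 1 kb of their start, by list, with the counts at the bar ends; dotted lines mark all protein-coding genes (26.7% liver, 55.4% MEF, 44.4% Hep3B). At 1 kb the regulators reach 5 of 5 in MEFs and the effectors stay at 0 or 1 of 5 in every list. With 2 kb, Plin1, Adipoq and Lpl would count in liver as well. Hepatocyte and fibroblast markers separate liver from MEFs.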

How the data were processed

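CUT&RUN libraries of 22 samples in 6 groups (liver, MEFs and Hep3B, each with its antibody and IgG) lay behind the files. The authors ran the nf-core/cutandrun pipeline with Bowtie 2 (v2.4.2) and SAMtools (v1.10) against mm10 or hg38. They called consensus peaks with Genrich (v0.6.1), whose stated command names no control. A figure legend of the paper describes the binding sites as high-confidence relative to IgG. How the IgG samples entered these lists is not known. The deposited narrowPeak lists, with replicates pooled, hold a score, a signal value (Genrich's area under the significance curve, not below 500 in liver and 200 in the others) and −log10 p-value and −log10 q-value of the summit. Depth was not given.

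Genes and starts were from GENCODE vM21 and v44, each list was ranked by summit −log10 p, and sequences were read from GRCm38.p6 and hg38. Counts and Wilson intervals were computed in Python (v3.11.15) with scipy (v1.17.1). The counting and motif code was tested on simulated data. The 10 genes and the gene lists were chosen with earlier results of these data known, and the sequences printed and the comparison of mouse with human summits were chosen after the peaks were seen. By rule the text named all 10 genes, the 5 strongest of their peaks per list, and of the 48 further genes the 3 strongest promoters per list and those with a promoter peak in all 3. The PROX1 consensus was a short textbook form and not the matrix used by the authors. Alternatives tried were other windows and promoter distances, a stricter q, equal numbers of peaks, area ranks and other overlap rules. The name of 1 further neighbouring gene is not reported here.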

Additional observations from a re-analysis of the deposited data

How the results depend on the processing

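Of 52 alternatives to 15 counts, 32 gave a count within 1.5 times the reported one, 18 a lower and 2 a higher one. Some of the 32 could not have moved. A q below 0.01 could remove no liver peak, as the lowest liver −log10 q was 4.03. A wider window could not raise genes with a peak 1.5 times, from 9 of 10 in liver or 10 of 10 in MEFs. With a window of 10 kb, peaks at the 10 genes fell to 43 in liver, 32 in MEFs and 7 in Hep3B, and genes with a Hep3B peak to 3, and with 100 kb the Hep3B peaks numbered 27. When only peaks whose nearest TSS was that of 1 of the 10 genes were kept, 45, 29 and 8 were left. With the 14369 strongest peaks of each list, liver had 29 peaks and MEFs 15, genes with a MEF peak numbered 6, and those with a promoter peak 1 in liver and 3 in MEFs. A promoter of 2 kb gave 6 genes in liver, adding the effectors Plin1, Adipoq and Lpl (summits 1.87 kb, 1.9 kb and 1.92 kb from the start). With an area of at least 500, an alternative added after seeing the data, MEFs had 25 peaks, and Hep3B had 4 peaks at 3 genes. Ranking by area left 1 Hep3B peak in the top 25%. With summits within 100 bp, 5 liver and 5 MEF peaks were shared. The number of genes with more liver than MEF peaks was 5 to 8 under its 3 added alternatives, against 6. The unequal list lengths, area floors and lowest −log10 q (4.03 in liver, 1.16 in MEFs and 1.22 in Hep3B) limit any comparison of counts between lists. Nearly abutting liver peaks that were counted apart limit it too. No paired analysis was possible because each group was deposited as 1 pooled list.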
